A study of Mus musculus with 8 samples.

Results

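The nuclear genes for the subunits of oxidative phosphorylation were compared between 4 wild types and 4 Tmem184b mutants, which are homozygous for a gene trap, in RNA sequenced from mouse dorsal root ganglia. A gene counted as a member when its symbol began with Nduf (followed by a, b, c, s or v and a digit), Uqcr, Atp5 or Cox with a digit from 4 to 8, or was Cyc1, Sdha, Sdhb, Sdhc or Sdhd, and when it was no named pseudogene. This gave 85 of the 40800 gene identifiers in the deposited table. By their symbols, 37 were counted under complex I, 4 under complex II, 9 under complex III, 18 under complex IV and 17 under complex V. Of the 85, 78 had a level above 0 log2 CPM in at least 4 of the 8 samples and were tested. CPM is the count of reads scaled to a fixed library total. The pattern of symbols does not take in Ndufab1 (the acyl carrier protein of complex I) or Atpif1 (an inhibitor of complex V), whose differences were 0.22 (adjusted p = 0.379, limma) and 0.09 (adjusted p = 0.672, limma).

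Dorsal root ganglia hold the cell bodies of the sensory neurons of the trunk and limbs, wrapped in satellite glia. The wild types were C57BL/6 mice, and the mutants carried the homozygous trap on a C57BL/6 background. A gene trap is an inserted cassette that captures splicing and shortens the transcript in every cell that uses the gene. All 8 mice were 6 months old, and the labels give no sex, litter or dissection batch, so that p-values measure the spread between these samples. The column headers carry running numbers of unstated meaning, consecutive for the mutants and higher for the wild types, with WT8 highest. A batch that followed these numbers could not be told apart from genotype. Samples are called WT1, WT3, WT4 and WT8, and Mut1 to Mut4, after their labels.

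Oxidative phosphorylation takes place in the inner mitochondrial membrane. Complex I takes electrons from NADH and complex II from succinate, ubiquinone carries them to complex III, and cytochrome c carries them on to complex IV, which passes them to oxygen. Complexes I, III and IV pump protons as they do so, and complex V, the ATP synthase, lets the protons back and makes ATP. A few subunits at the centre of complexes I, III, IV and V are encoded by mitochondrial DNA and all others by nuclear genes. Sensory neurons have very long axons whose ion pumps and transport run on this ATP.

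Libraries held 6183618 to 7983821 reads. Tmem184b had 1086 to 1456 reads in the wild types, against 34 to 58 in the mutants, a difference of -4.64 on the log2 scale (SE 0.11, adjusted p = 2.57e-12, limma), as the labels state. All 10 pan-neuronal marker genes were present, with summed levels of 14100 to 16060 CPM in the wild types, against 14640 to 16240 CPM in the mutants. The 6 satellite glia markers summed to 1852 to 2270 CPM against 2069 to 2909 CPM. Skeletal muscle markers were present too, at 47.5 to 151.6 CPM in the wild types, against 89.8 to 448.2 CPM in the mutants, with Mut4 highest. The median difference was -0.06 for the pan-neuronal list, 0.25 for satellite glia and 1.61 for muscle. It was 0.14 for myelinating Schwann cells, 0.53 for macrophages, 0.30 for fibroblasts, 0.13 for endothelial cells, 0.07 for red blood cells and 0.73 for adipocytes. In RNA from whole ganglia, fewer cells of a type and less RNA per cell cannot be told apart.

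Among the subunits, 1 gene fell steeply and most others were slightly higher in the mutant. Ndufs5, an accessory subunit of complex I, fell by 2.91 on the log2 scale, while Ndufb2 and Ndufa4 rose by 0.52 and 0.36. These were the 3 members called (5.46% of all tested genes were), by limma with the Benjamini-Hochberg adjustment over 15030 tested genes and an adjusted p under 0.05. Thus 2 of 78 members were called higher, where 2.81% of all tested genes were, and 1 was called lower, where 2.64% were. The number called higher was 0 without WT1 or Mut2, 1 without WT3, Mut1 or Mut4, and 5 without WT8 or Mut3, and Ndufs5 was called lower each time. The differences of 74 of the 78 members were above 0, as were those of 64.4% of all tested genes. The members' median difference was 0.17 against 0.07 for all tested genes. Under the 4 other scalings of the libraries the members' median stayed above 0, at 0.08 to 0.14, with 56 to 68 of the 78 differences positive and the median of all genes between -0.03 and 0.01. Before adjustment, 26 members had a p under 0.05 in the higher direction, where 14.1% of all tested genes did, and 1 in the lower direction, where 7.21% did. The count of 26 was 7 under median centring and with each sample's GC trend removed, 13 under TMM-type scaling, 17 under quantile normalization, 16 with no variance trend, 10 without WT1, 12 without Mut4, 16 without WT3 and 17 without Mut2.

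**Figure D1:**
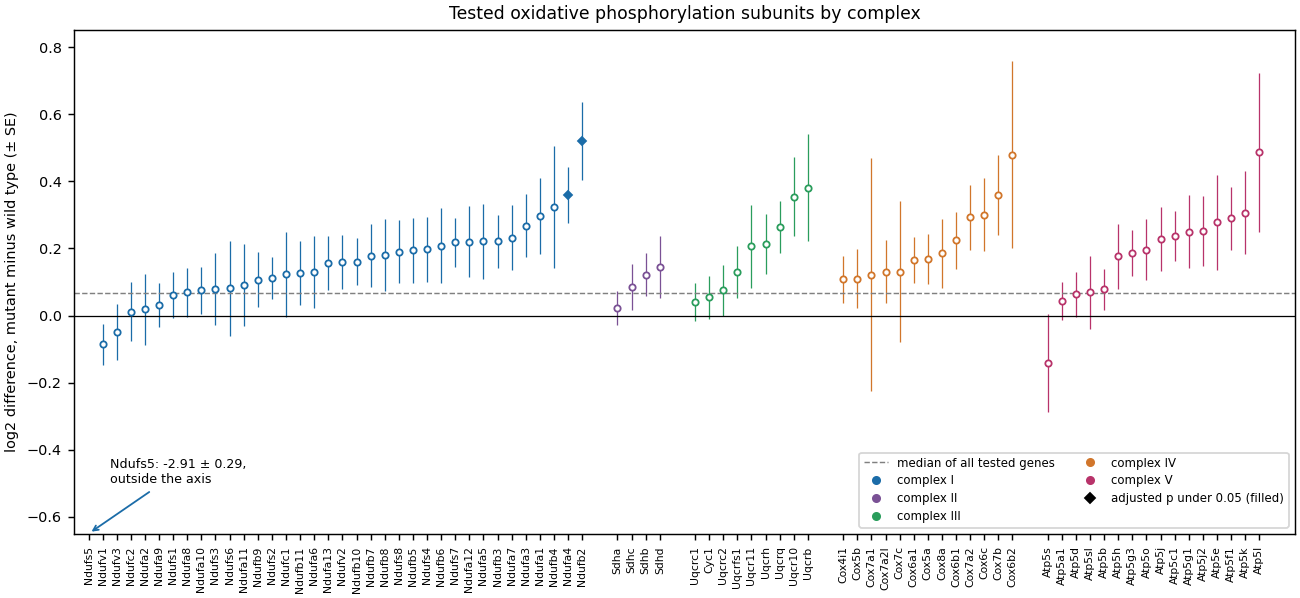
Log2 difference (mutant minus wild type, ± SE) of each tested subunit, sorted within its complex, with filled diamonds for an adjusted p under 0.05 and a dashed line at the median of all tested genes. Most points lie between 0 and 0.4, Ndufb2 and Ndufa4 are the filled points above the line, and Ndufs5 at -2.91 lies outside the axis.

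Ndufs5 (ENSMUSG00000028648, chromosome 4, 123712710 to 123718202, minus strand, GRCm38) encodes a small subunit of complex I on the side of the membrane facing the intermembrane space. It had 23, 37, 29 and 34 reads in WT1, WT3, WT4 and WT8, and 1, 1, 3 and 4 reads in Mut1 to Mut4. The groups were far apart, and no mutant had more than 4 reads. In log2 CPM the wild types were at 1.98, 2.30, 2.20 and 2.20, and the mutants at -1.19, -1.15, -0.41 and -0.22. The mean was 4.22 ± 0.411 CPM in the wild types, against 0.336 ± 0.214 CPM in the mutants (SD, n = 4 each). The difference was -2.91 (SE 0.29, adjusted p = 6.01e-05, limma; exact permutation p = 0.0286, two-sided, the smallest that 4 against 4 samples allow). Summed over the groups, 9 reads in the mutants against 123 in the wild types gave a ratio of 0.080 after scaling to library totals, with a 95% exact interval of 0.036 to 0.158 that covers counting error only. It was called lower under each of the other fits tried.

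A processed pseudogene, BC002163, matches Ndufs5 across all of its 318 annotated coding bases, and its level moved the other way. It lies on chromosome 16 (42955631 to 42955949, plus strand, GRCm38) within the protein-coding gene Zbtb20, and its 319 bases matched the main Ndufs5 transcript from the start codon on at 99.4% identity. The alignment had 2 differences, T81C and A105G, where the first letter is the base of Ndufs5, the last that of BC002163, and positions count from the first base of the start codon. Both fall on the last base of a codon. Since they are all that separates the genes over this stretch, the first 150 bases of each are shown, as long as a read, with the differing bases in capitals.
Ndufs5: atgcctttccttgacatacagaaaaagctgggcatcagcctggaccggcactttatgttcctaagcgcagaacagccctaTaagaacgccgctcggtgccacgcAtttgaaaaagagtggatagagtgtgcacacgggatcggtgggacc
BC002163: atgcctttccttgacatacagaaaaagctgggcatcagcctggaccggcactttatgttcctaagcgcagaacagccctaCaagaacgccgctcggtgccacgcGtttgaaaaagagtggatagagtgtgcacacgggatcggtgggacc
Of the 170 windows of 150 bases within the shared stretch, 65 hold neither difference, so that a read there has the same letters in both genes. The main Ndufs5 transcript is 525 bases long, with 92 bases before this stretch and others after it. Reads that reach those bases are left out of the count of windows.

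BC002163 had 24, 28, 26 and 54 reads in the wild types, against 74, 65, 49 and 85 in the mutants. WT8 was above the other wild types, and Mut3 was the lowest mutant. On the CPM scale the groups did not overlap, with 3.51 to 6.82 CPM in the wild types, against 7.55 to 12.2 CPM in the mutants. BC002163 rose by 1.18 on the log2 scale (SE 0.21, adjusted p = 0.00542, limma; exact permutation p = 0.0286, two-sided). Zbtb20, in which it lies, differed by -0.07 (adjusted p = 0.61, limma).

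The sum of Ndufs5 and BC002163 was 7.46, 8.14, 8.15 and 11.1 CPM in the wild types, against 11.2, 10.7, 8.01 and 12.7 CPM in the mutants. The groups overlapped, since Mut3 was below 3 of the wild types and WT8 was above Mut2 and Mut3. The mean sum was 8.72 ± 1.63 CPM against 10.7 ± 1.97 CPM (SD, n = 4 each), a ratio of 1.22 (exact permutation p = 0.257, two-sided). The share of this sum that was assigned to Ndufs5 was 48.9%, 56.9%, 52.7% and 38.6% in the wild types, against 1.3%, 1.5%, 5.8% and 4.5% in the mutants. How the authors' counting divided reads between such copies is not given in the sources used here, and whether it had a part in the fall of Ndufs5 was not tested.

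**Figure D2:**
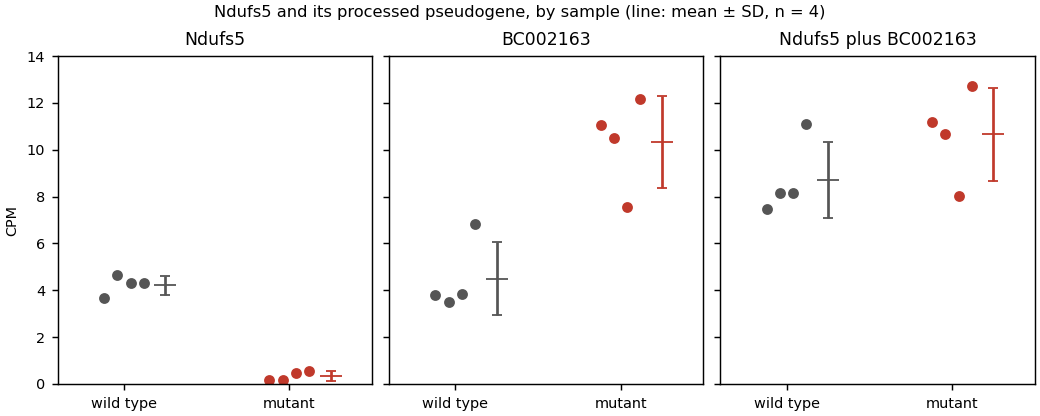
CPM of Ndufs5, of its processed pseudogene BC002163 and of their sum in each sample (points), with the mean ± SD of each group (n = 4). Ndufs5 is near 0 in the mutants, BC002163 is higher in all 4 mutants than in any wild type, and the sums of the groups overlap.

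The remaining 35 tested members of complex I ranged from -0.09 to 0.52. Of the 36 tested, 33 differences were positive, and the median of the complex was 0.16. Complex I has catalytic core subunits, which hold the flavin and the iron-sulfur clusters, and accessory subunits, which surround them. The 7 nuclear core subunits had a median of 0.11 and none was called. The 29 tested accessory subunits had a median of 0.16 and include the 3 calls.

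Ndufb2 (chromosome 6, 39592574 to 39603382, plus strand, GRCm38), an accessory subunit of the membrane arm, was at 3.73, 3.71, 4.10 and 4.06 log2 CPM in the wild types, against 4.45, 4.55, 4.36 and 4.33 in the mutants. The lowest mutant was above the highest wild type. It rose by 0.52 (SE 0.12, adjusted p = 0.0185, limma), from 14.8 ± 2.18 to 21.2 ± 1.48 CPM (SD, n = 4 each). The gene overlaps Braf and Gm16272 on the opposite strand and Gm42420 on its own strand. Whether counting used the strand is not given in the sources used here. Gm16272 had at most 1 read in any sample, and no value of Gm42420 was at hand, so that its part in the level of Ndufb2 was not tested. Braf differed by -0.02 (adjusted p = 0.893, limma). The call of Ndufb2 was lost without WT1, WT3, Mut1 or Mut2, with adjusted p of 0.0536 to 0.0644 (limma).

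Ndufa4 (chromosome 6, 11900292 to 11907497, minus strand, GRCm38) was named as a complex I subunit and is now known to sit in complex IV. By its symbol it is counted under complex I throughout. Its levels were 6.61, 6.90, 6.68 and 6.82 log2 CPM in the wild types, against 7.07, 7.16, 6.92 and 7.30 in the mutants. The groups did not overlap, though Mut3 was barely above WT3. It rose by 0.36 (SE 0.08, adjusted p = 0.0209, limma), from 107.9 ± 9.87 to 138.7 ± 15.2 CPM (SD, n = 4 each). Without WT1, Mut2 or Mut4 its call was lost, with adjusted p of 0.0540 to 0.0766 (limma), and adjusted p was 0.0709 under median centring and 0.0806 with each sample's GC trend removed. Its relative Ndufa4l2, which is induced by low oxygen, had 0 to 4 reads in the wild types, against 2 to 9 in the mutants and was not tested.

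Among the core subunits Ndufs7, which binds the last iron-sulfur cluster before ubiquinone, had the largest positive difference. It was at 6.24, 6.22, 6.26 and 6.22 log2 CPM in the wild types, against 6.43, 6.43, 6.30 and 6.66 in the mutants. The wild types were tightly grouped and all mutants were above them, Mut3 by the least. The difference of 0.22 (SE 0.07) was not called (adjusted p = 0.0953, limma). Ndufv1, which holds the flavin that accepts electrons from NADH, was at 7.08 to 7.24 in the wild types, against 6.95 to 7.13 in the mutants. Its groups overlapped and its difference was -0.09 (SE 0.06, adjusted p = 0.456, limma).

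Besides Ndufs5, the groups did not overlap for 7 members, all of them higher in the mutant, where this held in the higher direction for 7.5% of all tested genes and in the lower direction for 4.92%. They were Ndufa4, Ndufb2, Ndufb3, Ndufb10 and Ndufs7 of complex I, Uqcrq of complex III and Atp5l of complex V. Ndufb3, Ndufb10 and Uqcrq were named after their values were seen. Their differences were 0.22, 0.16 and 0.26, with adjusted p of 0.116, 0.2 and 0.0617 (limma).

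Complex II, succinate dehydrogenase, is also an enzyme of the tricarboxylic acid cycle and has no subunit encoded by mitochondrial DNA. None of its 4 genes was called, and its median difference of 0.10 was the lowest of the 5 complexes. Sdha, the flavoprotein that oxidises succinate, was at 8.09 to 8.21 log2 CPM in the wild types, against 8.13 to 8.15 in the mutants, a difference of 0.02 (SE 0.05, adjusted p = 0.851, limma). Sdhb, the iron-sulfur subunit, differed by 0.12 (SE 0.06). The membrane anchors Sdhc and Sdhd differed by 0.09 (SE 0.07) and 0.14 (SE 0.09). All 4 pairs of groups overlapped. Sdha and Sdhc were slightly negative under median centring, at -0.07 and -0.01.

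Complex III had 9 tested genes, all with positive differences of 0.04 to 0.38 and a median of 0.21. None was called. Uqcrb, a small subunit that binds ubiquinone, had the largest difference, with 2.70, 2.68, 3.31 and 2.98 log2 CPM in the wild types, against 3.21, 3.25, 3.25 and 3.48 in the mutants. WT4 lay within the mutants' range, and the difference of 0.38 (SE 0.16) was not called (adjusted p = 0.181, limma). The core protein Uqcrc1 was the least different, at 7.93 to 8.01 against 7.88 to 8.12 log2 CPM, a difference of 0.04 (SE 0.06, adjusted p = 0.741, limma). It was at -0.05 under median centring.

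Complex IV, cytochrome c oxidase, has several subunits with a general and a tissue-restricted isoform. All 13 tested genes had positive differences, 0.11 to 0.48 with a median of 0.17, and none was called. Ndufa4, which was called but is counted under complex I by its symbol, is not among these 13. Per kilobase of coding sequence, the general isoforms in these families ranged in the wild types from 198 CPM (Cox7a2) to 595 CPM (Cox8a), and the tested tissue-restricted isoforms Cox6b2 and Cox7a1 were at 4.32 and 4.47 CPM. Cox4i1, which starts the assembly of the complex, was at 164.1 ± 6.27 CPM in the wild types, against 177.6 ± 18.4 CPM in the mutants (SD, n = 4 each), a difference of 0.11 (SE 0.07). Its isoform Cox4i2, known from lung, had 2 to 6 reads in the wild types, against 2 to 5 in the mutants.

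Cox6a1 differed by 0.17 (SE 0.07), Cox6b1 by 0.22 (SE 0.08), Cox8a by 0.18 (SE 0.10) and Cox7a2 by 0.29 (SE 0.10). Adjusted p for these 4 general isoforms was 0.0938 to 0.321 (limma). Cox7b, another small subunit, was at 5.34, 5.68, 5.75 and 5.95 log2 CPM in the wild types, against 5.93, 6.21, 5.80 and 6.21 in the mutants. WT8 was above Mut1 and Mut3, and the difference of 0.36 (SE 0.12) was not called (adjusted p = 0.0964, limma). Cox7a2l differed by 0.13 (SE 0.09).

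The isoforms of heart and skeletal muscle were rare in these libraries. Cox6a2 had 2 to 3 reads in the wild types, against 1 to 6 in the mutants, and Cox8b 0 to 2 and 0 to 4 reads. Cox7a1 was at 0.78, 0.50, 0.70 and 0.23 log2 CPM in the wild types, against -0.44, 1.05, 0.99 and 1.10 in the mutants. Mut1 was the lowest of all samples and the other mutants were the 3 highest, and the difference of 0.12 (SE 0.35, adjusted p = 0.881, limma) was 0.49 without Mut1 and -0.02 without Mut4. Mut4, which had the highest summed muscle markers, was also the highest sample for Cox6a2, Cox7a1 and Cox8b, and the part of muscle RNA in these values was not tested.

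Among isoforms known from testis, Cox6b2 had 8 to 11 reads in the wild types, against 7 to 18 in the mutants. It was at 0.63 to 0.82 log2 CPM in the wild types, against 1.34, 1.68, 0.45 and 1.28 in the mutants, where Mut3 was below every wild type. Its difference of 0.48 (SE 0.28, adjusted p = 0.347, limma) was the largest of complex IV. Cox7b2 had at most 1 read in any sample, and Cox8c had 0 reads in all 8. A count of 0 allows up to 0.376 to 0.485 CPM, the worth of 3 reads in these libraries, for counting error only.

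Complex V had 15 positive differences among 16 tested genes, with a median of 0.21, and none was called. The enzyme has a catalytic F1 sector, which makes ATP, and a membrane-bound Fo sector joined to it by a peripheral stalk. The 5 F1 genes ranged from 0.04 to 0.28, with a median of 0.08. Atp5a1 and Atp5b, the alpha and beta subunits that form the catalytic sites, differed by 0.04 (SE 0.06) and 0.08 (SE 0.06), and Atp5d by 0.06 (SE 0.07). The F1 genes Atp5c1 and Atp5e differed by 0.24 (SE 0.075) and 0.28 (SE 0.14), within the range of the Fo and stalk genes. The 9 tested Fo and stalk genes ranged from 0.18 to 0.49, with a median of 0.25, and 7 of them had an unadjusted p under 0.05 in the higher direction, as 14.1% of all tested genes did.

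Of the Fo genes, Atp5l (subunit g, at the interface of ATP synthase dimers) had the largest difference. It had 7 to 12 reads in the wild types, against 11 to 17 in the mutants, at 0.49, 0.84, 0.94 and 0.63 log2 CPM against 1.16, 1.05, 1.20 and 1.44. The groups did not overlap, but with so few reads the difference of 0.49 (SE 0.24) was not called (adjusted p = 0.255, limma; exact permutation p = 0.0286). The 3 genes for the proton-carrying c subunit, Atp5g1, Atp5g2 and Atp5g3, encode the same mature protein behind different import signals. Atp5g3 was at 130.8 ± 7.81 against 149.1 ± 12.8 CPM and Atp5g1 at 14.9 ± 0.488 against 17.8 ± 2.09 CPM (SD, n = 4 each), with differences of 0.19 (SE 0.07) and 0.25 (SE 0.11). Atp5g2 had 0 to 4 and 3 to 6 reads.

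Atp5s and Atp5sl carry the family name, though neither encodes a part of the finished enzyme. Atp5s was at 3.79, 4.02, 3.78 and 3.91 log2 CPM in the wild types, against 3.28, 3.88, 3.81 and 3.98 in the mutants. Its negative difference of -0.14 (SE 0.15, adjusted p = 0.626, limma) came with Mut1 far below the other mutants, and it was 0.01 without Mut1. Atp5sl differed by 0.07 (SE 0.11).

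Summed over each complex, the mean level was higher in the mutants, and the samples of the groups overlapped. The summed CPM of all members was 6269, 6647, 6507 and 6999 in the wild types, against 6805, 7257, 6690 and 7998 in the mutants. WT8 was above Mut1 and Mut3, and Mut4 was the highest sample. The means were 6605.3 ± 305 and 7187.4 ± 593 CPM (SD, n = 4 each), 8.8% higher in the mutant. By complex the mutant mean was 9.4% higher for complex I, 4.6% for complex II, 8.6% for complex III, 14.2% for complex IV and 7.3% for complex V. In no complex did the sums separate the groups.

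**Figure D3:**
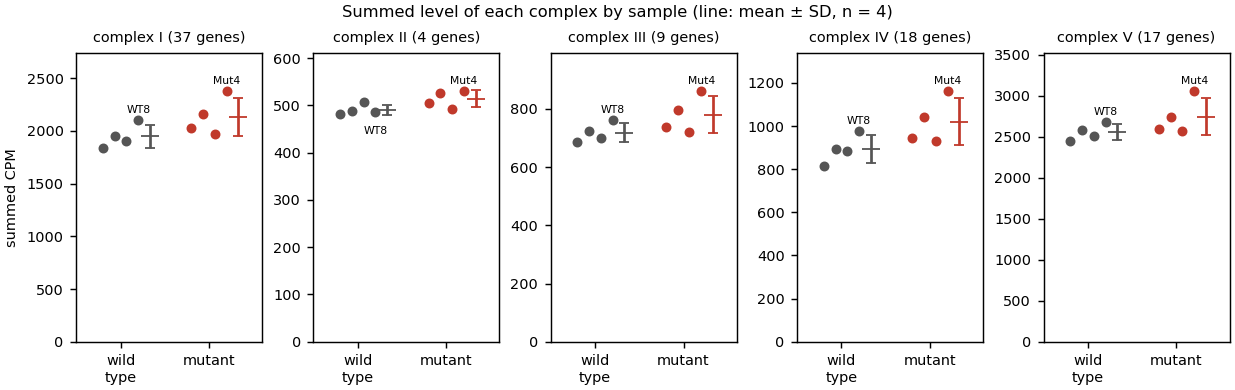
Summed CPM of the members of each complex in each sample (points), with the mean ± SD of each group (n = 4) and each axis starting at 0. Mut4 is the highest mutant in every complex, and WT8 is the highest wild type in all but complex II.

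Among the mutants, Mut4 lay furthest above the wild types. It was the highest of the 8 samples for 61 of the 78 tested members (78.2%), against 25.2% of all tested genes. The members' median deviation from the mean of the 8 samples was 0.25 in Mut4, 0.10 in Mut2, -0.01 in Mut1 and -0.04 in Mut3. In the wild types it was -0.16 in WT1, -0.08 in WT3, -0.08 in WT4 and 0.04 in WT8, and WT1 was the lowest sample for 40 members. By this median WT8 lay above Mut1 and Mut3. The 73 tested genes of cytosolic ribosomal proteins, which have no role in respiration, deviated by 0.19 in Mut4, -0.10 in WT1 and -0.15 in WT3, their lowest sample.

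Without Mut4 the members' median difference was 0.11, with 66 of 78 positive, and Ndufb2 and Ndufs5 were the members called. Without WT1 the median was 0.13, with 72 of 78 positive, and Ndufs5 was the member called. Mut4 also had the highest summed markers of satellite glia (2909 CPM), muscle (448.2 CPM), macrophages (83.4 CPM) and red blood cells (124.4 CPM). Its pan-neuronal markers were highest too, at 16240 CPM, close to the 16060 CPM of WT8. It was not the highest sample for markers of myelinating Schwann cells, fibroblasts, endothelial cells or adipocytes. The part of these cells in its subunit levels was not tested.

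**Figure D4:**
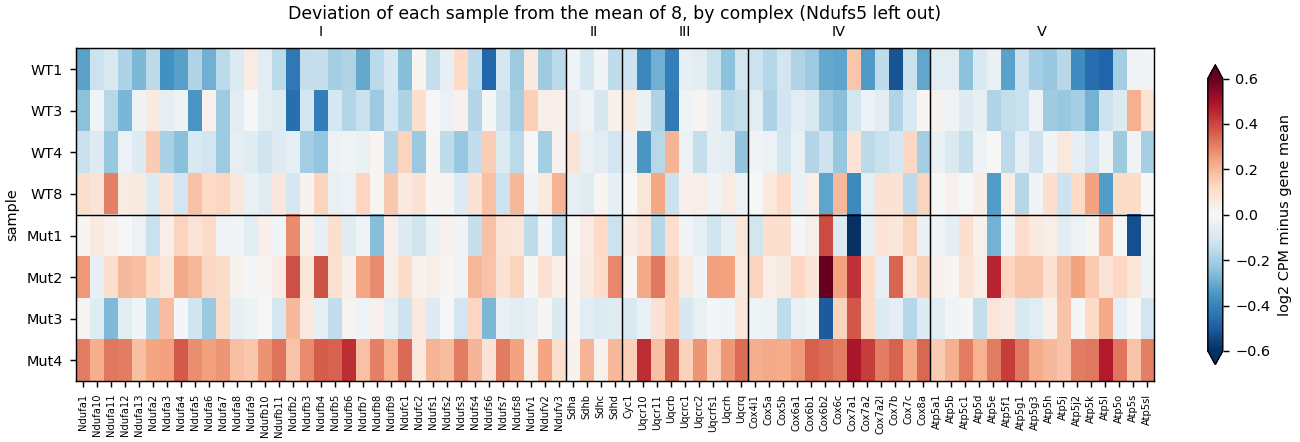
Deviation of each sample (rows) from the mean log2 CPM of the 8 samples, for each tested member but Ndufs5 (columns, by complex). The row of Mut4 is red almost throughout, the row of WT1 is mostly blue, and the rows of Mut1, Mut3 and WT8 hold both colours.

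The difference was larger for subunits with short coding sequences. The 18 members with a longest coding sequence under 300 bases had a median of 0.26 and were all positive, and the 25 members from 300 to under 450 bases had 0.21. The 23 members from 450 to under 900 bases had 0.14, and the 12 members of 900 bases or more had 0.05. Over 77 members, Ndufs5 left out, the Spearman correlation of the difference with coding length was -0.64. With mean log2 CPM it was -0.36, and mean log2 CPM correlated with coding length at 0.53. Shorter members thus tended to be lower in level too, and the parts of length and level were not told apart. These are descriptions across genes that share the same 8 libraries.

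Other protein-coding genes had the same order, with medians of 0.14, 0.10, 0.07 and 0.06 over 204, 572, 2573 and 10405 genes in these length classes. They were below the subunits in the 3 shorter classes and slightly above them in the longest. The cytosolic ribosomal protein genes had 0.24, 0.13, 0.12 and 0.06, so that the 7 shortest of them were close to the subunits of their length. In the mutants the median deviation of the shortest subunits was 0.32 in Mut4, 0.23 in Mut2, -0.01 in Mut3 and -0.04 in Mut1, and in WT1 it was -0.30. Without Mut4 the 4 classes of subunits were at 0.20, 0.15, 0.10 and 0.00. Length and role went together in part. Of complex I, 3 of the 7 core subunits and 3 of the 29 tested accessory subunits were among the 12 members of 900 bases or more. In complex V the members of that length were the F1 genes Atp5a1 and Atp5b, and all Fo and stalk genes were shorter. The parts of length and role in the differences were not told apart.

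**Figure D5:**
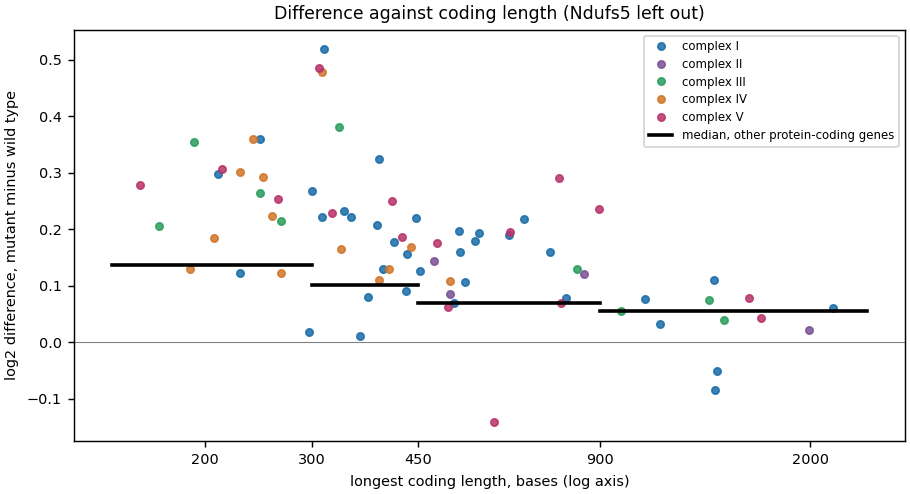
Log2 difference (mutant minus wild type) of each tested member but Ndufs5 against its longest coding length in bases (log axis), coloured by complex, with bars at the median of other protein-coding genes in 4 length classes. The points slope down to the right, and the shortest subunits lie mostly above the bar of their class.

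The level of a subunit in these data also went along with whether the genome holds copies of its transcript. In all, 22 members had a transcript of another gene with at least 95% identity over at least 150 bases, most of them processed pseudogenes. In the wild types, levels per kilobase of the longest coding sequence ranged from 4.32 to 595 CPM among the tested members. Cox8a, Atp5b, Cox6a1 and Atp5a1 were at the top, at 595, 580, 576 and 511 CPM per coding kilobase, and none of the 8 highest had such a copy. Of the 8 lowest, 5 did, namely Atp5l (4.46), Cox7c (11.6), Ndufb4 (12.2), Ndufs5 (13.3) and Uqcrb (22.2). Divided by the median annotated transcript length instead, 5 of the 8 lowest and 0 of the 8 highest had a copy too, with Atp5g1 in place of Uqcrb. Atp5l had 9 such genes elsewhere, and those in the table had at most 2 reads in any sample. The 21 tested members with a copy had a median of 78.7 CPM per coding kilobase and the 57 without one 113. The part of reads shared between copies in these levels was not tested.

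Ndufs5 fell while its copy BC002163 rose. The other members with a negative difference, Ndufv1, Ndufv3 and Atp5s, had no such copy, so that no other pair could have shown this. Gm15920, a copy of Ndufa12, had 5 to 22 reads in the wild types, against 4 to 30 in the mutants (difference 0.86, SE 0.49, adjusted p = 0.34, limma), and Ndufa12 differed by 0.22. Gm16702, a noncoding gene with 96.5% identity to Atp5g1 over 169 bases, fell by 1.07 (SE 0.20, adjusted p = 0.00826, limma), and Atp5g1 differed by 0.25. No other copy that was tested was called.

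Among other genes of the respiratory system, calls were few outside the subunits encoded by mitochondrial DNA. Of those 13 subunits, 7 were tested and all 7 were positive, with a median of 0.39. All 7 had an unadjusted p under 0.05 in the higher direction, where 14.1% of all tested genes did. Of the 7, 3 were called higher, where 2.81% of all tested genes were. They were mt-Nd4 of complex I by 0.49 (SE 0.13, adjusted p = 0.0433), mt-Cytb of complex III by 0.49 (SE 0.13, adjusted p = 0.0379) and mt-Co1 of complex IV by 0.39 (SE 0.10, adjusted p = 0.0322; all limma). The summed level was 12380 to 14420 CPM in WT1, WT3 and WT4, 19900 in WT8 and 18210 to 22340 in the mutants. WT8 thus lay within the mutants, and 5 of the 13 genes were listed at 0 in every sample.

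None of the 43 tested assembly factors, which build the complexes, was called (median 0.11, 35 positive, 6 with an unadjusted p under 0.05). None of the 13 genes of the electron carriers ubiquinone and cytochrome c (median 0.13, 2 unadjusted), the 13 of the tricarboxylic acid cycle (median 0.09, 4 unadjusted) or the 73 of the mitochondrial ribosome (median 0.10, 10 unadjusted) was called either. These unadjusted counts were all in the higher direction, where 14.1% of all tested genes had such a p. The 14 tested regulators of mitochondrial genes had a median of 0.11, with 10 positive. Of these 14, 5 had an unadjusted p under 0.05 in the higher direction and 1 in the lower, where 7.21% of all tested genes did. Esrra, a nuclear receptor that switches on genes of respiration, rose by 0.31 (SE 0.08, adjusted p = 0.0256, limma), from 40.7 to 50.7 CPM. The other regulators were not called, where 2.81% of all tested genes were called higher. Of 16 glycolysis genes 8 were positive, and Pfkl, the liver-type phosphofructokinase, fell by 0.25 (SE 0.07, adjusted p = 0.0385, limma). No list was tested as a set.

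Promoters of the members were searched for 3 short motifs of factors known to act on genes of respiration. RefSeq (GRCm38.p6) gave a promoter of 300 bases, 250 before to 50 after the start, for 69 of the 85 members. The NRF1 motif (GCGCA and GCGC with any base between them) was found on either strand in 17 of them (24.6%), in 10.4% of the other 11378 tested genes with a promoter and in 4.6% of all 32851 promoters. The YY1 motif AAGATGGCG was found in 8 (11.6%), 3.1% and 1.4%, and the ETS motif CCGGAAG in 16 (23.2%), 18.0% and 8.9%. A promoter can hold more than 1 of them, and 35 members (50.7%) held at least 1, against 28.1% of the other tested genes. A match is a run of letters and no evidence that a factor binds.

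The promoter of Ndufs5, the member that fell, holds the NRF1 motif 98 bases before its start. The 100 bases from 150 to 51 before the start (chr4:123718237-123718336, minus strand, GRCm38.p6) are shown with the motif in capitals.
Ndufs5 promoter: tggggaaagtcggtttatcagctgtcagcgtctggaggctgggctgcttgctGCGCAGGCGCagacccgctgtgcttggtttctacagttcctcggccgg
Of the 17 members with the motif 16 were tested, and apart from Ndufs5 their differences ranged from 0.02 (Sdha) to 0.32 (Ndufb4).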

How the data were processed

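The values analysed are moderated log2 CPM, per the file headers, in 1 deposited table of 41422 lines. The same deposited table gives the GC percent of each gene, an annotation value. The 402 identifiers listed more than once carried equal values and were used once. Per the submitters' processing notes, Salmon 0.11.1, DESeq2 and the build mm9 were named, and their roles, the annotation, the strand setting and any filter are not given in the sources used here. Subtracting the shared floor of -1.79 (0 reads) gave whole reads for 100.0% of values, within 0.05 of a read, and a prior count averaging 2 reads. Reads are not independent molecules.

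Mutant and wild type (4 each) were compared with limma 3.58.1 in R 4.3.3 (lmFit, eBayes with trend), two-sided, with no covariate, on genes above 0 log2 CPM in at least 4 of 8 samples, and p-values were adjusted by Benjamini-Hochberg over all 15030. The prior count makes differences of low genes too small. Single values were compared by exact permutation over 70 assignments.

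The genes named are members with an adjusted p under 0.05, the largest positive and negative difference in each complex (core and other subunits of complex I apart), isoform families, the Sdh genes, untested members and called genes of the other lists. In lists of cell type markers the called genes were Avil (-0.22), Glul (0.49), Ncmap (0.69), Cd163 (0.80) and Dcn (0.60), and among cytosolic ribosomal proteins Rps2 (-0.68). Members and lists were chosen with earlier results of these data known. Gene positions, transcripts and coding lengths come from GENCODE M21 (GRCm38), not the authors' build, for 40340 of 40800 identifiers, and similarity from blastn 2.17.0. Levels per kilobase of coding sequence, which leaves out untranslated parts, were added after the data were seen. Tables used Python 3.11.15, pandas 2.3.3 and scipy 1.17.1.

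Replicates of a group correlated at 0.9838 to 0.9881 across genes, and their reads differed by more than sampling noise (chi-square over its degrees of freedom 2.8 to 7.31). On simulated reads with a dispersion of 0.02, 82 of 100 genes changed by 1 and 12 of 100 changed by 0.5 (log2) were called among 15064, with 3 unchanged genes called. With no gene changed, 0 of 15074 were called. The fit was repeated with other filters on low levels, with 1 CPM as the added count, with 4 scalings (median centring, quantile, TMM-type with a 30% trim, each sample's GC trend removed), with other variance models, weighted samples, Xist in the model, a replicate block, each sample left out, other thresholds, and voom on the recovered reads.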

Additional observations from a re-analysis of the deposited data

Results flagged for a closer look

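In 76 groups of 4 samples, 7 had a sample set far from the others by Dixon's ratio of gap to range, which chance does in about 1 of 20 groups. Sdha was at 8.21 log2 CPM in WT4 and at 8.09 to 8.11 in the other wild types. Cox6a1 was at 7.50 in WT1 against 7.62 to 7.64, and the mean of complex II was at 6.57 log2 CPM in WT1 against 6.61 to 6.62. Cox7b2 was at -1.27 in WT3, the worth of 1 read, and at the floor of -1.79 in the others. BC002163 was at 2.83 in WT8 against 1.93 to 2.05. Among the mutants, Uqcrb was at 3.48 in Mut4 against 3.21 to 3.25, and Cox7a1 was at -0.44 in Mut1 against 0.99 to 1.10.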

How the results depend on the processing

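Ndufs5 was the one member called lower in all 25 alternatives (difference -3.54 to -1.98), and BC002163 kept its call except with no variance trend (1.18, adjusted p = 0.061, limma). The number of members called higher was 1 with GC trend removed or median centring, 0 with no variance trend, 9 at an adjusted p under 0.1 and 0 under 0.01. It was 0 to 5 when single samples were left out. All genes called higher numbered 224 with GC trend removed, 238 under TMM-type scaling, 204 under median centring, 67 with no variance trend, 271 under quantile normalization, 876 at 0.1, 65 at 0.01 and 174 (without WT1) to 572 (without WT4) without single samples. All genes called lower numbered 727 with GC trend removed, 706 under median centring, 75 with no variance trend, 612 at 0.1, 162 at 0.01 and 230 (without WT1) to 427 without single samples. The split of 423 higher and 397 lower genes became 204 and 706 under median centring, 224 and 727 with GC trend removed, 238 and 579 under TMM-type scaling and 271 and 422 under quantile normalization. Under median centring the median of complexes I to V was 0.066, 0.011, 0.114, 0.077 and 0.12, and with GC trend removed 0.07, 0.022, 0.124, 0.091 and 0.137. The causes were not tested.

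Samples with shared numbers (1, 3 and 4) did not deviate together (r of 0.081, 0.041 and 0.058), so the numbers were not taken to pair samples. With a replicate block over those 6 samples, 5 members were called higher (Ndufa3, Cox6c, Cox7b, Atp5f1 and Atp5k) beside 326 of all genes (2.17%), and Ndufb2 (adjusted p = 0.0504, limma) and Ndufa4 (0.0633) were not. There were 0 in the same 6 samples without the block, where 180 of all genes were called higher.

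Members of a few reads (Ndufs5 in the mutants, Cox7a1, Cox6b2, Atp5l) had wide errors at this depth, with SE of the difference of 0.24 to 0.35. On simulated reads with a dispersion of 0.02, 12 of 100 genes changed by 0.5 were called. That dispersion was not fitted to these members, so that the count does not measure how often such a change is called in them. How often that happens at their levels was not tested.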
